A study of Mus musculus with 12 samples.

Results

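Transcripts of 10 genes of Toll-like receptor (TLR) recognition and signalling were followed through ureteral obstruction in mouse kidney: the receptors Tlr1, Tlr2, Tlr3, Tlr4, Tlr7, Tlr8, Tlr9 and Tlr13, the lipopolysaccharide co-receptor Cd14 and the adaptor Myd88. They were taken by symbol from the 55471 genes of the deposited expression table, and all 10 were found and were among the 18093 genes tested. Total RNA was taken from left kidneys of C57/BL6 mice aged 8 to 12 weeks, in which a microvascular clamp on the left ureter blocked the outflow of urine (unilateral ureteral obstruction). The groups were Sprr2f knockout (KO) at day 5 (n = 3), wild type (WT) at day 5 (n = 3), KO at day 0 (n = 4) and WT at day 0 (n = 2). Sprr2f encodes a small proline-rich protein, a relative of the proteins of the skin barrier, and the study asked which genes change with obstruction when it is missing. The labels do not say how the knockout allele was made, whether day 0 kidneys had been operated on, or whether replicates are more than separate samples, so p-values here refer to the spread between samples, which may be technical.

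Toll-like receptors are membrane proteins that recognise parts of microbes and molecules released by injured cells. TLR1, TLR2 and TLR4 act mainly at the cell surface on lipoproteins and lipopolysaccharide, while TLR3, TLR7, TLR8, TLR9 and TLR13 act in endosomes on nucleic acids. Ligand binding brings cytoplasmic TIR domains together and recruits an adaptor, MyD88 for every TLR but TLR3, which uses TRIF (Ticam1), and the signal ends in NF-kB and interferon regulatory factors. In the kidney TLR2 and TLR4 have been described on tubular cells as well as on resident and infiltrating leukocytes.

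The libraries held 16567256 to 19398882 reads counted to genes, so that 1 read was worth 0.0515 to 0.0604 CPM, the unit of the deposited table, in which reads are scaled to a common total. Sprr2f itself stood at 0 to 4.07 CPM in KO kidneys and 26.9 to 58.8 CPM in WT kidneys at day 5, and at 0 to 0.262 CPM in KO and 0 to 0.106 CPM in WT kidneys at day 0. Kidney identity was clear in every library: 6 proximal tubule markers summed to 1561 to 3730 scaled CPM at day 5 and 9144 to 10616 at day 0. Scaled CPM is the deposited CPM divided by a composition factor (TMM), which was 1.13 to 1.19 at day 5 and 0.795 to 0.897 at day 0. Although the series is titled as female, 7 of the 12 libraries carried Y-linked transcripts and 5 carried Xist: 1 of 3 KO and 1 of 3 WT libraries at day 5, all 4 KO libraries and 1 of 2 WT libraries at day 0 were Y-linked. Differences that go with this pattern are given after the genotype comparison and beside the gene lists in which it was called.

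RefSeq promoter entries (GRCm38.p6) were found for 7 of the 10 genes, and the 250 bases before the start site are shown for 4 of them. Tlr2, Tlr13 and Myd88 are shown because their transcripts rose with obstruction and stand for a surface receptor, an endosomal receptor and the shared adaptor, and Tlr3 because its transcript was not called. Capitals mark the NF-kB motif in Tlr2 (chr3:83841609-83841858, minus strand) and Tlr3 (chr8:45410381-45410630, minus strand), the PU.1 core GAGGAA in Tlr13 (chrX:106143025-106143274, plus strand) and the interferon-stimulated element (GAAA repeated after any 2 bases) in Myd88 (chr9:119340019-119340268, minus strand).
Tlr2: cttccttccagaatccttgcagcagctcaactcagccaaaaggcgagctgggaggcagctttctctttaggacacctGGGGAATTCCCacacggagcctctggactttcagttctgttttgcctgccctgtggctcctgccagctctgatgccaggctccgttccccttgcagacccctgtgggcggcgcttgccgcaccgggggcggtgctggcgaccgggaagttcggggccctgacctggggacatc
Tlr3: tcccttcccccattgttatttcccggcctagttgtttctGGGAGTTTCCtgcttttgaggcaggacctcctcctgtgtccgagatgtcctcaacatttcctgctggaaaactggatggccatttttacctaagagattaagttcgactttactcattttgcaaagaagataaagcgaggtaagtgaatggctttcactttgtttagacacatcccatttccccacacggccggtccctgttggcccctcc
Tlr13: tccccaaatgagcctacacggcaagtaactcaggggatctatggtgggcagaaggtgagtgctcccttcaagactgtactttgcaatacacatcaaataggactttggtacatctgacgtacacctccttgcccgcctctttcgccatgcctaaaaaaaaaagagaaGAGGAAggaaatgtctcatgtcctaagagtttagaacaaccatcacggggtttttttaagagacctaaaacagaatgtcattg
Myd88: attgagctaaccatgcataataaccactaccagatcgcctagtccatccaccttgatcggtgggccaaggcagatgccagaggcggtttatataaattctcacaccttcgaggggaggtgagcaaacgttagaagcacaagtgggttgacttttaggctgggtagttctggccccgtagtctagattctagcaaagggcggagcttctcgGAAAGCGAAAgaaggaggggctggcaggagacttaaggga
Positions are counted back from the start site, with the last base shown as the first before it. The NF-kB motif was found for 2 of the 7 genes, against 7.25% of all 32851 promoter entries of this length, both strands searched. It stood as a pair of overlapping matches at -173 and -172 in Tlr2 and once at -211 in Tlr3. GAGGAA was found for 4 of the 7 (Tlr1, Tlr8, Tlr9 and Tlr13, at -83 in Tlr13), against 23.3% of all promoter entries. Tlr1 had 2 entries, and only 1 of them held GAGGAA. The interferon-stimulated element was found in Myd88 alone, at -40, against 2.98% of all, and TGANTCA (AP-1) in Tlr9 alone, at -58, against 6.75%. The NF-kB motif thus stood in the promoter of a gene that rose strongly and in that of the 1 gene that was not called, and a match describes letters in this window, not a bound site.

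Obstruction for 5 days was accompanied by higher transcript levels of 9 of the 10 genes in both genotypes. Cd14 showed the largest fitted difference on the scale used (in KO, tests on whole reads put Tlr8 level with it) and Myd88 the smallest of the 9, and Tlr3 did not pass the test in either genotype. At an adjusted p under 0.05 over all tested genes (limma), 9 of 10 were higher in KO kidneys, where 29.4% of all tested genes were called higher, 25.4% lower and 54.8% in either direction. In WT kidneys 9 of 10 were higher too, against 24.5% of all genes called higher, 22.6% lower and 47.1% in either direction. Of all genes, 5328 were called higher and 4589 lower in KO, and 4440 higher and 4087 lower in WT. With library size alone these became 10114 higher and 2179 lower in KO and 8560 higher and 2001 lower in WT, while the 9 genes kept their calls. The median log2 difference of the 10 genes was 1.86 in KO and 2.10 in WT, beside 0.07 and 0.04 over all tested genes. Tlr8 passed the filter on low values through its day 5 libraries only, so its call for obstruction is not independent of the filter. The other 9 passed it on day 0 libraries as well. For each of the 9 called genes, every day 5 library lay above every day 0 library of its genotype, as was true of 29.5% of all tested genes in KO and 34.4% in WT, while the reverse held for 25.6% and 30.7%. In whole tissue, more cells of a kind and more RNA per cell cannot be told apart.

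**Figure D1:**
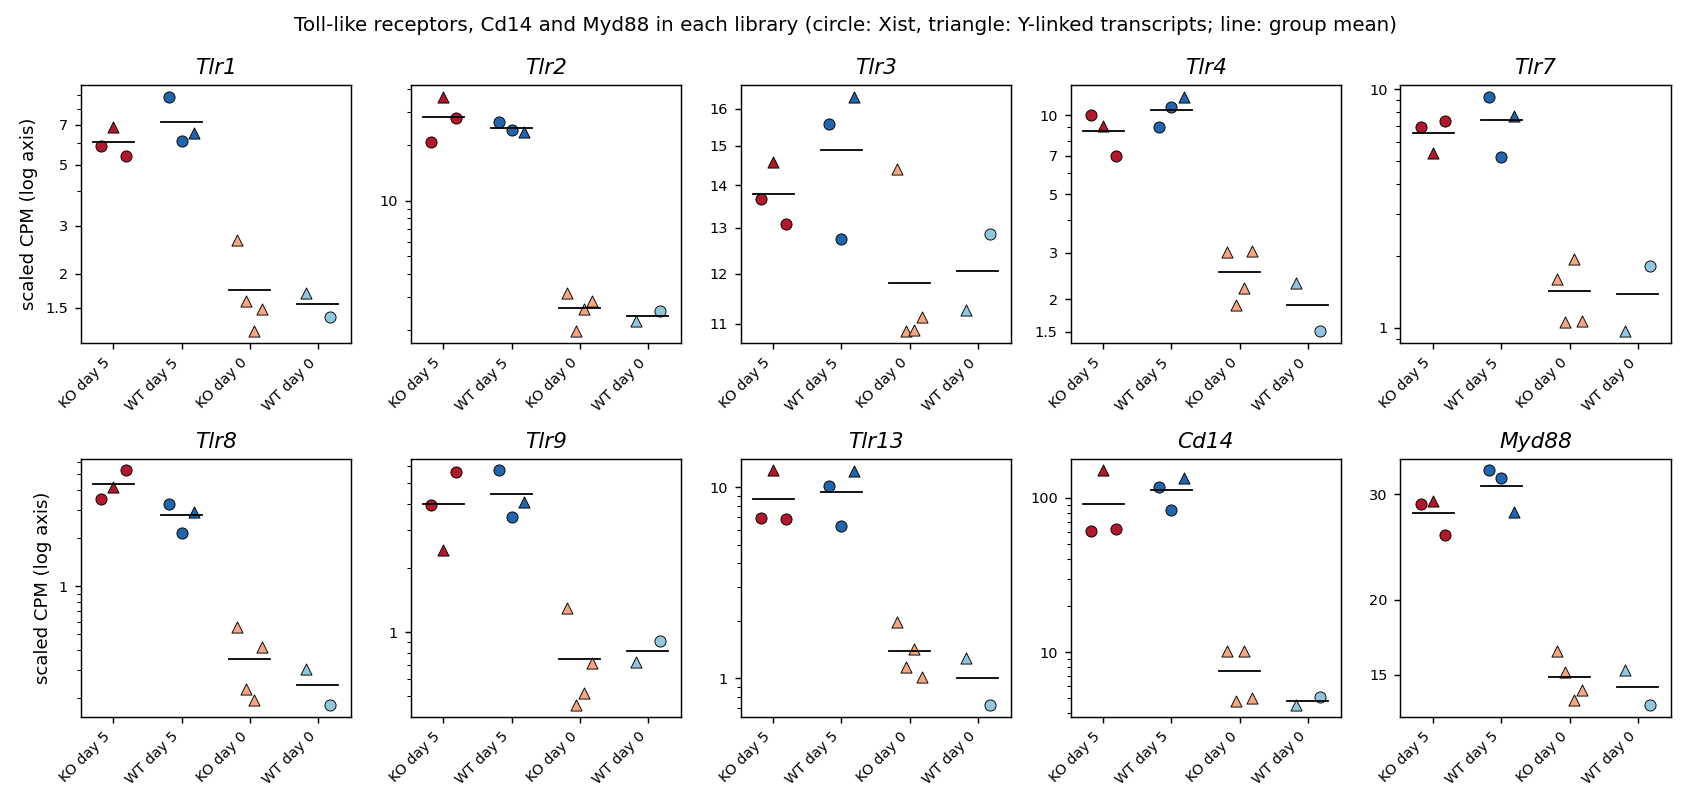
Scaled CPM (log axis, a separate range in each panel) of the 10 genes in the 12 libraries, with KO and WT at day 5 on the left and KO and WT at day 0 on the right; circles are libraries with Xist, triangles libraries with Y-linked transcripts, lines group means. The day 5 libraries lie above the day 0 libraries in every panel except that of Tlr3, where the groups overlap.

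Cd14 (ENSMUSG00000051439, protein-coding, minus strand, chromosome 18, 36725067 to 36726798, GRCm38 with GENCODE M21) encodes a protein anchored in the outer membrane leaflet that hands lipopolysaccharide to TLR4. Its levels were 60.7, 151 and 62.5 scaled CPM in KO kidneys at day 5, against 10.1, 4.78, 10.2 and 5.06 at day 0. In WT kidneys they were 118, 84.0 and 135 at day 5, against 4.54 and 5.08 at day 0. The days were far apart in both genotypes, but KO libraries differed among themselves: the KO library at 151 was more than the other two together, and 2 of the 4 KO libraries at day 0 stood at about the level of WT. The log2 difference between days was 3.46 ± 0.34 (SE, adjusted p = 2.64e-06, limma) in KO and 4.38 ± 0.40 (adjusted p = 2.47e-06) in WT. At day 5 it had the most reads of the 10 genes, 1345 to 3072 per library, and at day 0 it had 63 to 164.

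Tlr4 (ENSMUSG00000039005, chromosome 4, 66827584 to 66930284, plus strand) encodes the lipopolysaccharide receptor that CD14 serves. It stood at 9.96, 9.12 and 7.01 scaled CPM in KO kidneys at day 5, against 3.03, 1.90, 2.20 and 3.04 at day 0. WT kidneys had 8.98, 10.7 and 11.7 at day 5, against 2.30 and 1.51 at day 0. The lowest day 5 library was thus still above every day 0 library. Relative to the group mean, libraries were less spread than for Cd14, except in WT at day 0. Day 5 differed from day 0 by 1.60 ± 0.20 (log2, SE, adjusted p = 2.08e-05, limma) in KO and 2.20 ± 0.24 (adjusted p = 8.70e-06) in WT.

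Tlr2 (ENSMUSG00000027995, chromosome 3, 83836272 to 83841767, minus strand), whose product binds bacterial lipoproteins as a partner of TLR1 or TLR6, had the largest fitted difference of the receptors with 0.5 CPM added. On whole reads (edgeR) Tlr8 was above it, at 3.59 against 3.41 in KO and 3.48 against 3.36 in WT. It stood at 20.8, 36.3 and 27.8 scaled CPM in KO kidneys at day 5, against 3.15, 1.97, 2.59 and 2.86 at day 0. WT kidneys had 26.4, 23.9 and 23.5 at day 5, against 2.24 and 2.54 at day 0. WT libraries lay close together on each day, and the KO libraries at day 5 lay on both sides of them. The log2 difference was 3.17 ± 0.18 (SE, adjusted p = 6.28e-08, limma) in KO, a 9.03-fold level, and 3.12 ± 0.22 (adjusted p = 3.80e-07) in WT, an 8.69-fold level.

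Tlr1 (ENSMUSG00000044827, chromosome 5, 64924679 to 64933563, minus strand), the TLR2 partner for triacylated lipoproteins, had 5.86, 6.90 and 5.39 scaled CPM in KO kidneys at day 5, against 2.66, 1.59, 1.23 and 1.49 at day 0. In WT kidneys it had 8.89, 6.10 and 6.53 at day 5, against 1.69 and 1.39 at day 0. The days did not overlap in either genotype. Obstruction raised it by 1.58 ± 0.21 (log2, SE, adjusted p = 4.60e-05, limma) in KO and 1.90 ± 0.26 (adjusted p = 5.69e-05) in WT. Its 50-base sequences are not all its own: 513 of 3332 (15.4%) also occur in other genes, 307 genes in all. In Tlr6, its neighbour on chromosome 5, 454 of the 3332 (13.6%) occur. A part of the reads of Tlr1 and these genes may thus have been lost or exchanged, depending on how reads with several matches were counted.

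Tlr13 (ENSMUSG00000033777, X chromosome, 106143204 to 106160493, plus strand), a receptor for bacterial ribosomal RNA that mice have and humans lack, rose in both genotypes. It stood at 6.92, 12.3 and 6.83 scaled CPM in KO kidneys at day 5, against 1.98, 1.14, 1.43 and 1.01 at day 0. WT kidneys had 10.1, 6.25 and 12.1 at day 5, against 1.27 and 0.725 at day 0. Within each group the highest library was less than 2-fold above the lowest, and the Y-linked library was the highest in each group that held both patterns. The log2 difference between days was 2.26 ± 0.28 (SE, adjusted p = 1.93e-05, limma) in KO and 2.72 ± 0.33 (adjusted p = 2.39e-05) in WT.

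Tlr7 and Tlr8 lie next to each other on the X chromosome (ENSMUSG00000044583 at 167304929 to 167330558 and ENSMUSG00000040522 at 167242696 to 167264329, both on the minus strand). Tlr7, a receptor for single-stranded RNA, had 6.97, 5.42 and 7.34 scaled CPM in KO kidneys at day 5, against 1.61, 1.06, 1.94 and 1.07 at day 0. In WT kidneys Tlr7 had 9.31, 5.19 and 7.76 at day 5, against 0.968 and 1.81 at day 0. The days were apart in both genotypes and the genotypes overlapped on both days. The log2 difference of Tlr7 was 1.90 ± 0.24 (SE, adjusted p = 3.03e-05, limma) in KO and 2.07 ± 0.29 (adjusted p = 8.31e-05) in WT.

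Tlr8, whose human counterpart also binds single-stranded RNA, was hardly detected at day 0, with 3 to 9 reads per library. It stood at 3.53, 4.19 and 5.29 scaled CPM in KO kidneys at day 5, against 0.556, 0.228, 0.194 and 0.417 at day 0. WT kidneys had 3.26, 2.17 and 2.89 at day 5, against 0.303 and 0.181 at day 0. All 6 day 5 libraries were several times above the highest day 0 library. Tlr8 passed the filter on low values through its day 5 libraries only, so neither this gap nor its p-values are independent of the filter. The log2 difference was 2.52 ± 0.21 (SE, adjusted p = 7.16e-07, limma) in KO and 2.13 ± 0.25 (adjusted p = 1.86e-05) in WT. At so few reads the 0.5 CPM added to every value shapes these sizes: with 1 CPM added they were 1.98 in KO and 1.59 in WT. Relative to scaled depth, pooled day 5 libraries held 12.1 times as many Tlr8 reads as day 0 libraries in KO (exact binomial 95% interval 7.84 to 19.6) and 11.5 times in WT (5.72 to 27.1), intervals that cover counting error only. Tests on whole reads gave log2 differences of up to 3.59 in KO (edgeR) and 3.50 in WT (DESeq2).

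Tlr9 (ENSMUSG00000045322, chromosome 9, 106222598 to 106226883, plus strand), the receptor for unmethylated CpG DNA, had 3.92, 2.41 and 5.62 scaled CPM in KO kidneys at day 5, against 1.30, 0.456, 0.519 and 0.714 at day 0. In WT kidneys it had 5.72, 3.48 and 4.07 at day 5, against 0.726 and 0.907 at day 0. KO libraries differed more than 2-fold among themselves on each day, and the days still did not overlap. Its change over the 5 days was 1.83 ± 0.28 (log2, SE, adjusted p = 0.000135, limma) in KO and 1.88 ± 0.34 (adjusted p = 0.000538) in WT.

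Tlr3 (ENSMUSG00000031639, chromosome 8, 45395665 to 45411080, minus strand), the receptor for double-stranded RNA and the 1 receptor that signals without MyD88, was the exception. Its levels were 13.7, 14.6 and 13.1 scaled CPM in KO kidneys at day 5, against 14.4, 10.9, 10.9 and 11.1 at day 0. In WT kidneys they were 15.6, 12.7 and 16.3 at day 5, against 11.3 and 12.9 at day 0. The days overlapped in both genotypes, in KO because of the library at 14.4. The log2 difference was 0.22 ± 0.13 (SE, 95% interval -0.06 to 0.50, adjusted p = 0.164, limma) in KO and 0.29 ± 0.15 (-0.05 to 0.62, adjusted p = 0.144) in WT. The intervals leave room for no change and for a rise of up to 0.50 in KO and 0.62 in WT on the log2 scale. The call depended on the composition factors. Scaled by library size alone, which moved the median of all genes to 0.46 in KO and 0.40 in WT, Tlr3 differed by 0.66 (adjusted p = 0.000866) in KO and 0.70 (adjusted p = 0.00254) in WT. Of its exon bases, 381 lie opposite the exons of the antisense gene Gm45542, and the labels do not say whether reads were counted by strand.

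Myd88 (ENSMUSG00000032508, chromosome 9, 119335934 to 119341411, minus strand) encodes the adaptor that joins TLR and interleukin-1 receptors to the IRAK kinases. It stood at 28.9, 29.2 and 25.6 scaled CPM in KO kidneys at day 5, against 16.4, 15.2, 13.6 and 14.2 at day 0. WT kidneys had 32.9, 32.0 and 28.0 at day 5, against 15.3 and 13.4 at day 0. The libraries of each group lay close together, the lowest day 5 library well above the highest day 0 library. The log2 difference was 0.89 ± 0.10 (SE, adjusted p = 1.01e-05, limma) in KO, a 1.85-fold level, and 1.09 ± 0.12 (adjusted p = 1.15e-05) in WT, a 2.12-fold level. Its exons share 290 bases with those of Acaa1a on the other strand, and 7.42% of its 50-base sequences occur there.

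**Figure D2:**
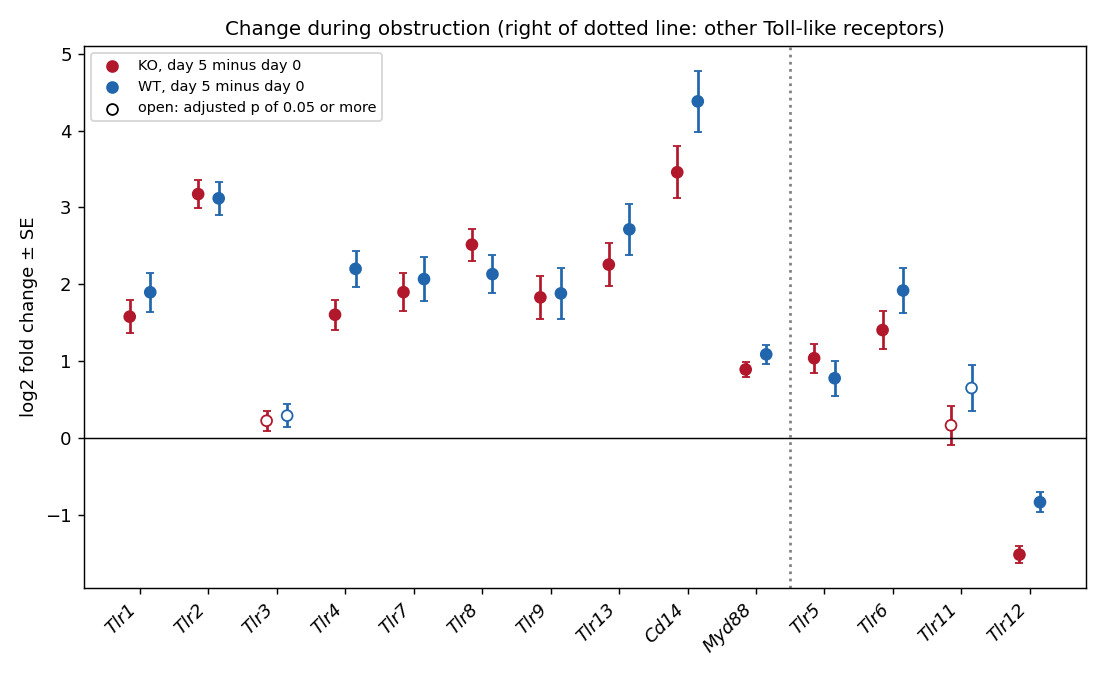
Log2 fold change between day 5 and day 0 (limma, bars ± SE) for the 10 genes and, right of the dotted line, the 4 remaining mouse Toll-like receptors, with KO left of WT for each gene; open circles have an adjusted p of 0.05 or more. On this scale Cd14 has the largest fitted change in both genotypes (3.46 in KO and 4.38 in WT), Tlr3 is near 0, and Tlr12 is below 0.

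Per kilobase of exon, obstruction changed the order of the genes. At day 5 Cd14 led with 52.7 ± 29.8 scaled CPM per kb in KO and 64.7 ± 14.9 in WT kidneys (SD, n = 3 each), followed by Myd88 with 10.8 ± 0.77 in KO and 12.0 ± 1.01 in WT, and Tlr2 with 9.39 ± 2.58 in KO and 8.16 ± 0.52 in WT. Cd14 stood clear of Myd88 in both genotypes, and Myd88 of Tlr2 in WT only, since the KO libraries of Myd88 and Tlr2 overlapped. Tlr3 came next at 2.65 ± 0.14 in KO and 2.86 ± 0.36 in WT. From Tlr3 down to the last place, held by Tlr9 at 1.15 ± 0.46 in KO and by Tlr8 at 0.773 ± 0.16 in WT, neighbours overlapped, with 1 exception: Tlr8 lay below Tlr9 in all WT libraries. At day 0 Myd88 led, with 5.76 ± 0.48 per kb in KO (n = 4) and 5.55 ± 0.52 in WT (n = 2). Cd14 followed with 4.35 ± 1.75 in KO and 2.78 ± 0.22 in WT, then Tlr3 with 2.27 ± 0.33 in KO and 2.32 ± 0.22 in WT. In KO kidneys at day 0 Cd14 overlapped both Myd88 and Tlr3, while in the 2 WT libraries these 3 were apart. Of the 8 receptors, Tlr3 was the most abundant at day 0 and Tlr2 at day 5, and Tlr8 was lowest at day 0 with 0.0973 ± 0.05 per kb in KO and 0.0675 ± 0.02 in WT.

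**Figure D3:**
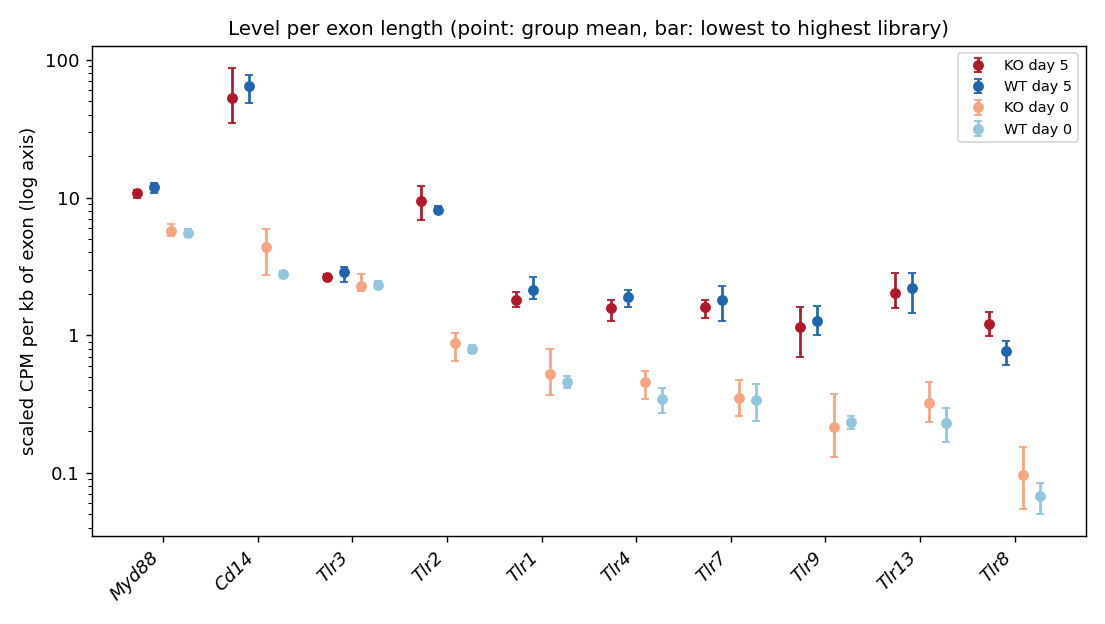
Level per exon length (scaled CPM per kb, log axis) of the 10 genes, as group means with bars from the lowest to the highest library; for each gene KO and WT at day 5 stand left of KO and WT at day 0. Day 5 lies above day 0 for each gene but Tlr3, whose 4 groups lie between 2.09 and 3.14.

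Knockout and wild type kidneys were compared on each day to ask whether the loss of Sprr2f goes with other levels of these genes. At day 5 none of the 10 passed the test (limma), against 0.0% of all tested genes, and 1025 genes had an unadjusted p under 0.05. The log2 differences (KO minus WT) ran from -0.40 for Cd14 to 0.56 for Tlr8. Tlr8 was the only one of the 10 whose genotypes did not overlap at day 5, with all 3 KO libraries above all 3 WT libraries, which held for 5.72% of all genes, while 4.21% had all KO libraries below. Its difference was 0.56 ± 0.22 (SE, 95% interval 0.08 to 1.05), with an unadjusted p of 0.0268 and an adjusted p of 0.855. For Cd14 the interval was -1.18 to 0.37, for Tlr4 -0.72 to 0.20, for Tlr2 -0.26 to 0.59 and for Myd88 -0.38 to 0.09. edgeR on whole reads called none of the genes at day 5 either, and DESeq2 called 49 genes higher and 2 lower, none of the 10 among them. Without KO day 5 replicate 2, limma called 15 genes higher and 8 lower at day 5, again none of the 10.

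At day 0 none of the 10 passed the test, against 0.0166% of all genes (3 called, all lower in KO), and 2709 genes had an unadjusted p under 0.05. The differences ran from -0.12 ± 0.32 for Tlr9 to 0.52 ± 0.38 for Cd14 (SE, n = 4 KO and 2 WT), and the genotypes overlapped for all 10. Of all tested genes, 12.9% had every KO library above both WT libraries at day 0, and 12.4% had every KO library below. Without WT day 0 replicate 1, which leaves a single WT library, 421 genes were called higher and 217 lower, none of the 10 among them. The change with obstruction was compared between genotypes as an interaction, and again none of the 10 was called, against 0.00553% of all genes (1 called) and 1374 at an unadjusted p under 0.05. Cd14 and Tlr4 had the lowest values, at which the change is smaller in KO than in WT: -0.92 ± 0.52 log2 units for Cd14 (SE, unadjusted p = 0.102, adjusted p = 0.709, limma) and -0.60 ± 0.31 for Tlr4 (unadjusted p = 0.0746, adjusted p = 0.681). The 95% intervals of the interaction were -2.06 to 0.21 for Cd14 and -1.26 to 0.07 for Tlr4, and -0.56 to 0.67 for Tlr2.

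Summed markers of neutrophils did not overlap between genotypes at day 5 or at day 0, but the sums were not tested and no single marker was called. The 8 neutrophil markers summed to 13.6 to 44.8 scaled CPM in KO kidneys and 52.5 to 80.6 in WT kidneys at day 5. At day 0 they summed to 2.16 to 3.11 in KO and 3.15 to 4.90 in WT. Among all tested genes, taken singly, every KO library lay below every WT library for 4.21% at day 5 and 12.4% at day 0. Of the 6 tested markers none was called between genotypes at day 5 (limma), and all 6 were lower in KO with an unadjusted p under 0.05. Of all 18093 tested genes, 377 were lower in KO with such a p. In WT at day 5 S100a8, S100a9 and Csf3r averaged 17.2, 22.5 and 14.3 scaled CPM. There Cxcr2, Mmp8 and Retnlg averaged 3.23, 2.30 and 2.10. Cxcr2 was at 0 in every KO library at day 0, and Ly6g and Camp in both WT libraries at day 0. The Y-linked library had the highest sum of its genotype at day 5 (44.8 in KO and 80.6 in WT), while in WT at day 0 the Y-linked library had 3.15 and the Xist library 4.90. For the pattern all 6 tested markers had positive differences (median 0.53), none called. Within day 5 KO kidneys the library with the highest Cd14 (151) and Tlr2 (36.3) also had the highest neutrophil sum, but this sum was below that of every WT library. In WT the library with the highest sum had the highest Cd14 (135) and the lowest Tlr2 (23.5). The part of neutrophils in the levels of Cd14, Tlr2 and the other genes was not tested.

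**Figure D4:**
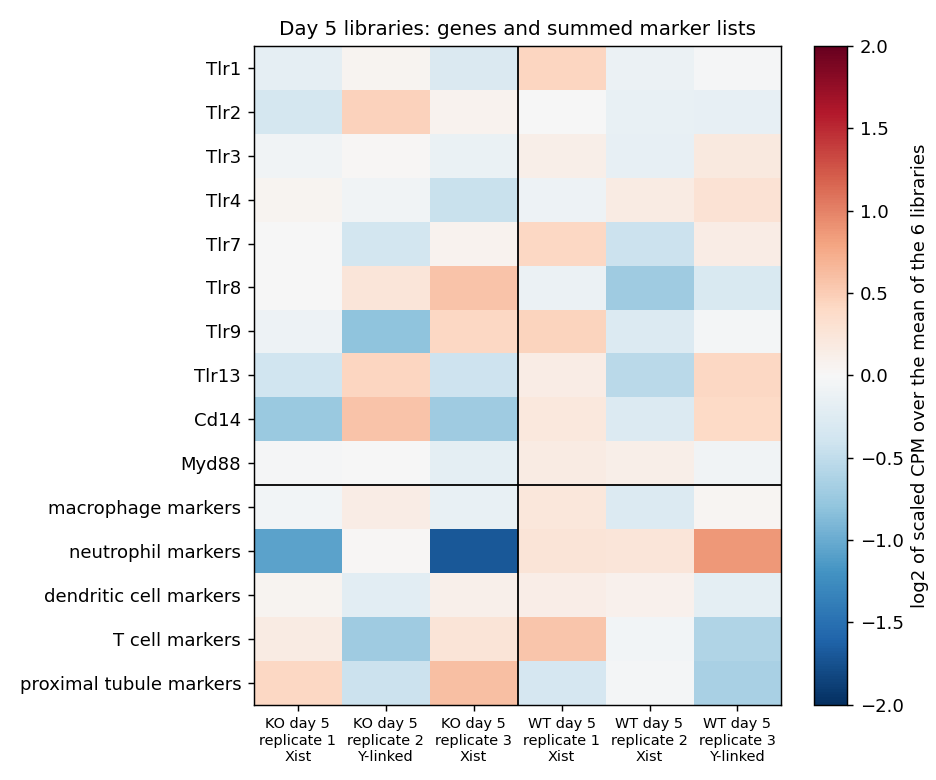
Log2 of the scaled CPM of each gene, or of each summed marker list, over its mean in the 6 day 5 libraries, with KO libraries left of WT libraries and the sex-chromosome pattern of each named under it. Cd14 and Tlr13 are highest in the Y-linked library of each genotype, Tlr8 is highest in KO replicate 3, and the neutrophil sum is lowest in KO replicates 1 and 3.

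The sex-chromosome pattern of the libraries was compared within groups, since Tlr7, Tlr8 and Tlr13 are X-linked and the groups differ in it. None of the 10 genes was called (Y-linked minus Xist, limma), against 7.94% of all genes (3.53% higher and 4.41% lower in Y-linked libraries) and 4382 at an unadjusted p under 0.05. Tlr13 came nearest, 0.64 ± 0.20 log2 units higher in Y-linked libraries (SE, unadjusted p = 0.00619, adjusted p = 0.0650). At day 5 the 2 Y-linked libraries had 12.3 and 12.1 scaled CPM of Tlr13, against 6.92, 6.83, 10.1 and 6.25 in the 4 Xist libraries. The WT pair at day 0 had 1.27 (Y-linked) and 0.725 (Xist). edgeR and DESeq2 on whole reads called it (0.71, adjusted p = 0.0478, and 0.75, adjusted p = 0.0170), as did limma without WT day 5 replicate 1 (adjusted p = 0.0391) or without KO day 0 replicate 1 (adjusted p = 0.0421). Cd14 was 0.59 ± 0.27 higher (unadjusted p = 0.0521, adjusted p = 0.211), while the estimates for the X-linked neighbours Tlr7 and Tlr8 were -0.26 ± 0.23 and 0.08 ± 0.21. The days were also compared within libraries of 1 pattern, without a test, since each such comparison has a single library on at least 1 side. The log2 differences, day 5 minus day 0, were 0.30 (Tlr3) to 4.32 (Cd14) in Y-linked KO libraries (1 at day 5 and 4 at day 0). They were 0.52 to 4.74 for the same genes in the Y-linked WT pair (1 each) and 0.13 to 4.16 in WT libraries with Xist (2 at day 5 and 1 at day 0). No KO library at day 0 carried Xist, so a comparison of KO with WT at day 0 within 1 pattern rests on a single Y-linked WT library.

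The remaining mouse receptors, Tlr5, Tlr6, Tlr11 and Tlr12, did not all follow. Tlr6, the TLR2 partner for diacylated lipoproteins, rose by 1.40 ± 0.25 (SE, adjusted p = 0.000364, limma) in KO and 1.92 ± 0.29 (adjusted p = 0.000158) in WT. It had 2 to 9 reads per library at day 0, and over the alternatives these sizes ran from 1.02 to 2.25 in KO and from 1.43 to 2.93 in WT. The flagellin receptor Tlr5 rose by 1.04 ± 0.19 (adjusted p = 0.00055) in KO and 0.78 ± 0.23 (adjusted p = 0.0137) in WT. Tlr5 had 4 to 10 reads per library at day 0. Tlr6 and Tlr5, like Tlr8, passed the filter on low values only with their day 5 libraries, so their calls are not independent of it. The WT call of Tlr5 was lost without WT day 5 replicate 3 (0.59, adjusted p = 0.0530) or without WT day 0 replicate 1 (0.69, adjusted p = 0.0958). Tlr11, a profilin receptor, was not called, at 0.16 ± 0.25 (adjusted p = 0.609) in KO and 0.65 ± 0.30 (adjusted p = 0.0959) in WT, though in WT it was called with library size alone (0.89, adjusted p = 0.0233) and without WT day 5 replicate 2 (0.84, adjusted p = 0.0498).

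Tlr12, the partner of TLR11 in mice, was the only receptor that fell. It had 13.4, 12.5 and 12.8 scaled CPM in KO kidneys at day 5, against 39.1, 31.4, 44.1 and 38.2 at day 0. In WT kidneys it had 14.5, 13.2 and 12.1 at day 5, against 23.2 and 24.9 at day 0. The genotypes met at one level at day 5, and all 4 KO libraries at day 0 were above both WT libraries. The latter held for 12.9% of all tested genes, while 12.4% had all KO libraries below. The log2 difference between days was -1.52 ± 0.11 (SE, adjusted p = 2.77e-07, limma) in KO and -0.84 ± 0.13 (adjusted p = 0.000233) in WT. At day 0 it was 0.65 ± 0.13 higher in KO (unadjusted p = 0.000243, adjusted p = 0.0810), a difference that DESeq2 called (0.69, adjusted p = 0.000596); over all alternatives its adjusted p ran up to 0.51. The interaction was -0.68 ± 0.18 (unadjusted p = 0.00197, adjusted p = 0.440). Per kilobase it stood at 12.0 ± 1.65 in KO (SD, n = 4) and 7.57 ± 0.38 in WT (n = 2) at day 0, above each of the 8 receptors described before. Tlr12 was named in this detail after its values had been seen.

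Genes around the receptors were taken as lists by role, and each list is given with how many of its tested genes passed the test for obstruction. The share of a list called higher ran from 28.6% (signalling kinases) to 80.0% (TIR adaptors) in KO, against 29.4% of all genes, and from 28.6% (signalling kinases) to 86.7% (inflammatory target genes) in WT, against 24.5% of all genes. Among co-receptors and chaperones, 6 of 10 were higher and 1 lower in KO, and 5 were higher and 2 lower in WT. Ctss, a lysosomal protease that processes endosomal TLRs, averaged 136 ± 6.50 scaled CPM in KO (SD, n = 3) at day 5, against 19.3 ± 2.63 (n = 4) at day 0, and 151 ± 35.5 (n = 3) in WT, against 17.1 ± 0.92 (n = 2). Unc93b1, the chaperone that brings endosomal TLRs to their compartment, rose by 1.96 ± 0.10 (SE) in KO and 2.14 ± 0.12 in WT, and Lbp, which loads lipopolysaccharide onto CD14, by 2.24 ± 0.15 in KO and 2.03 ± 0.18 in WT. Ly86, the partner of the TLR-like receptor CD180, rose by 2.68 ± 0.19 in KO and 2.75 ± 0.22 in WT. The fatty acid transporter Cd36 was the gene that fell in both (-2.56 ± 0.46 in KO and -1.83 ± 0.55 in WT). Cd36 was also called for the sex-chromosome pattern, 1.52 ± 0.12 higher in Y-linked libraries (SE, adjusted p = 8.77e-06), and its WT days overlapped. With the pattern as a covariate the fall was -1.55 ± 0.15 in KO and -1.58 ± 0.15 in WT. Ly96, the MD-2 subunit of the TLR4 receptor, which was looked at after its values had been seen, was 0.36 ± 0.13 higher in KO (adjusted p = 0.0369) and stood at 0.04 ± 0.16 in WT (adjusted p = 0.844).

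Of the 5 other TIR adaptors, 4 were higher and none lower in each genotype. Pik3ap1 (BCAP), which links TLRs to phosphoinositide signalling, rose by 2.02 ± 0.19 (SE, limma) in KO and 2.22 ± 0.23 in WT. Ticam2 (TRAM), the bridge from TLR4 to TRIF, rose by 1.60 ± 0.26 in KO and 2.22 ± 0.31 in WT, and Tirap (MAL), the bridge from TLR2 and TLR4 to MyD88, by 0.78 ± 0.17 in KO and 0.69 ± 0.21 in WT. Sarm1 was called at levels under 1 scaled CPM. At day 0 Sarm1 stood at 0.456 scaled CPM or less, and Ticam2 at 0.130 to 0.759 in KO and 0 to 0.302 in WT. Sarm1 and Ticam2 passed the filter on low values only with their day 5 libraries, so their calls are not independent of it. Ticam1 (TRIF), the adaptor of TLR3, was the gene not called, at 0.09 ± 0.09 in KO (adjusted p = 0.452) and -0.15 ± 0.11 in WT (adjusted p = 0.306). Neither the double-stranded RNA receptor nor its adaptor thus passed the test.

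Of the 14 signalling kinases and ubiquitin ligases, 4 were higher and 3 lower in KO, and 4 higher and 1 lower in WT, with medians of -0.02 in KO and 0.01 in WT. The share called higher, 28.6% in each genotype, was close to that of all genes. Ikbke, a kinase of interferon regulatory factors, rose by 1.52 ± 0.13 in KO and 1.45 ± 0.15 in WT. Irak4, the first kinase after MyD88, rose by 0.67 ± 0.11 in KO and 0.74 ± 0.13 in WT, and the ubiquitin ligase Traf3 by 0.49 ± 0.09 in KO and 0.88 ± 0.11 in WT. Chuk (IKK alpha) fell by 1.07 in KO and by 0.78 in WT. This list depended on the scaling: with library size alone, 11 of the 14 were called higher and 1 lower in each genotype. Of all 18093 tested genes, that scaling called 10114 higher and 2179 lower in KO, and 8560 higher and 2001 lower in WT.

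Of the 9 transcription factors, 7 were higher and none lower in each genotype. Nfkb2 averaged 105 ± 27.7 scaled CPM in KO at day 5, against 22.2 ± 2.42 at day 0, and 112 ± 8.21 in WT, against 26.4 ± 0.46. Nfkb1 rose by 1.46 ± 0.08 in KO and 1.33 ± 0.09 in WT, and Relb by 2.21 ± 0.25 in KO and 2.61 ± 0.30 in WT. Relb was also 0.62 ± 0.17 higher in Y-linked libraries (adjusted p = 0.0408), and with the pattern as a covariate rose by 2.63 ± 0.21 in KO and 2.72 ± 0.21 in WT. Irf7, which drives type I interferon after TLR7 and TLR9, rose by 0.95 ± 0.12 in KO and 1.21 ± 0.14 in WT. Irf3 and Irf5 were the 2 not called in either genotype.

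Of the 10 inhibitors, 5 were higher and 3 lower in KO, and 6 higher and 2 lower in WT. Tnfaip3 (A20), which removes ubiquitin chains from TLR signalling complexes, rose by 2.48 ± 0.21 in KO and 2.49 ± 0.25 in WT, Nfkbie by 2.17 ± 0.19 in KO and 2.46 ± 0.22 in WT, and Il1rl1 (ST2) by 2.29 ± 0.25 in KO and 2.60 ± 0.30 in WT. Sigirr, an orphan receptor of the same superfamily that dampens TLR signals, went the other way, with 63.7 ± 2.98 scaled CPM in KO at day 5, against 118 ± 6.24 at day 0, and 60.3 ± 2.15 in WT, against 105 ± 2.33. Sigirr and the 3 inhibitors named before it thus moved in opposite directions. Of these inhibitors, Il1rl1 stood at 0.666 scaled CPM or less at day 0. Il1rl1 passed the filter on low values only with its day 5 libraries, so its calls are not independent of it.

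Inflammatory target genes were mostly higher. Of the 15 tested (Ifnb1 was not), 10 were higher in KO and 13 in WT, and none was lower, though edgeR and DESeq2 called 1 lower in KO. Il6 and Ccl4 passed the filter on low values only with their day 5 libraries, so a call of either for obstruction is not independent of it. Socs3 averaged 110 ± 10.6 scaled CPM in KO at day 5, against 3.35 ± 0.82 at day 0, and 141 ± 33.7 in WT, against 3.57 ± 1.02. The neutrophil chemokine Cxcl2 averaged 36.8 ± 18.3 in KO at day 5, against 0.922 ± 0.23 at day 0, and 46.1 ± 9.97 in WT, against 0.635 ± 0.04. The adhesion molecule Icam1 rose by 2.23 ± 0.16 in KO and 2.65 ± 0.19 in WT, and Nfkbiz, an inducible cofactor of NF-kB, by 2.71 ± 0.13 in KO and 2.66 ± 0.16 in WT. At day 5, 14 of the 15 had a lower fitted level in KO than in WT, where the median difference of all tested genes was 0.005. An unadjusted p under 0.05 (limma) was found for 5 (Il1b, Il6, Il12b, Ccl3 and Ccl4), but none was called (lowest adjusted p of these 0.656). Of all 18093 genes, 1025 had such a p, 377 of them lower in KO. Il6, Il12b, Ccl3 and Ccl4 were low, with means of 0.591, 0.170, 1.26 and 0.911 scaled CPM in KO. In WT their means were 2.13, 3.37, 3.38 and 2.16, and Il12b ran from 0.851 to 5.79. The interaction was not called for any of the 15.

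Of the 9 endogenous ligands, 6 were higher in each genotype, and 2 were lower in KO and 1 in WT. Matrix proteins were among the higher ones: Fn1 averaged 457 ± 6.34 scaled CPM in KO at day 5, against 52.0 ± 9.99 at day 0, and 439 ± 53.9 in WT, against 60.6 ± 17.3. Tnc rose by 2.50 ± 0.20 in KO and 2.82 ± 0.24 in WT, and Bgn by 1.85 ± 0.21 in KO and 2.04 ± 0.25 in WT. The 1 gene of this list called for the sex-chromosome pattern was the matrix proteoglycan Vcan, 0.97 ± 0.26 higher in Y-linked libraries (adjusted p = 0.0388). S100a8 and S100a9, also on this list, are counted among the neutrophil markers too. The mitochondrial chaperone Hspd1 fell by 1.40 in KO and by 1.26 in WT. Hmgb1, a nuclear protein released by dying cells, was not called (-0.0034 ± 0.06 in KO and -0.0046 ± 0.08 in WT).

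**Figure D5:**
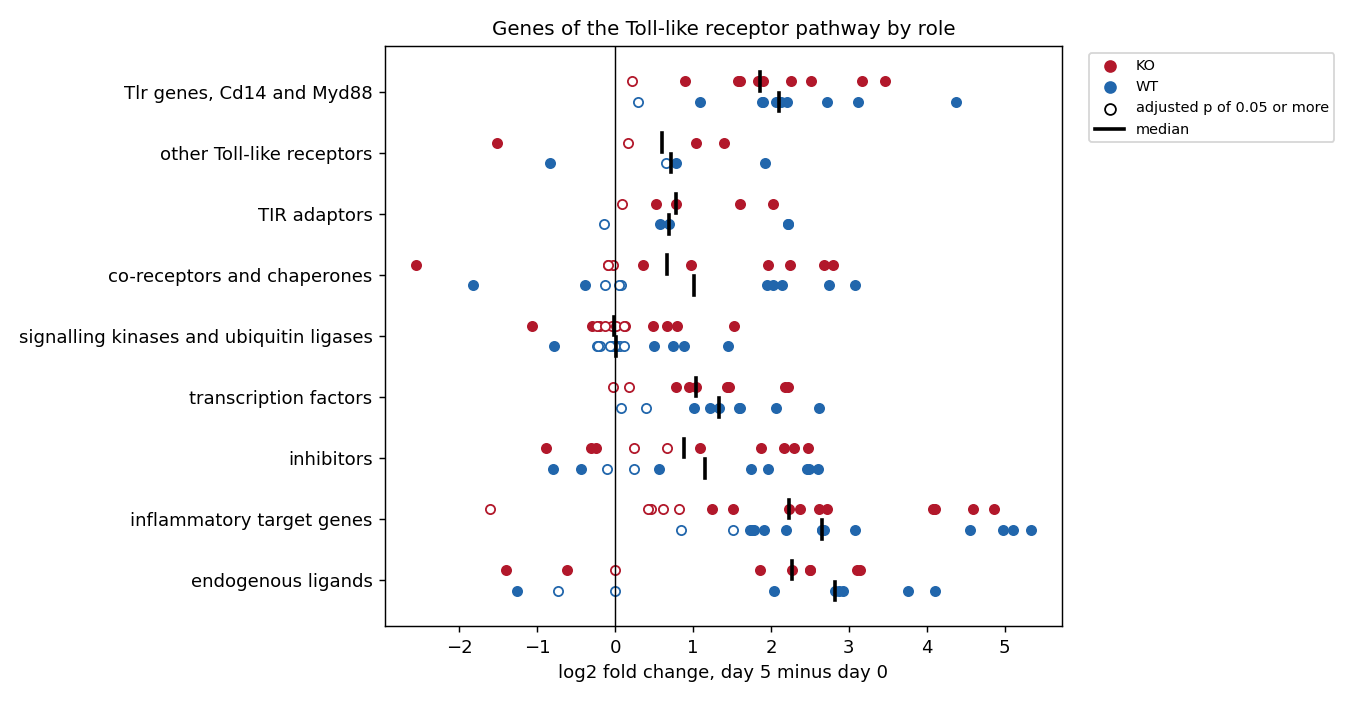
Log2 fold change between day 5 and day 0 of every tested gene of the 10 described genes and of 8 lists by role, with KO in red above WT in blue for each list; open circles have an adjusted p of 0.05 or more and black bars are medians. Most receptors, transcription factors, target genes and ligands lie right of 0, while signalling kinases and ubiquitin ligases lie on both sides of it.

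Markers of several cell types that carry TLRs moved with day, and their part in the differences between days was not tested. The 10 macrophage markers summed to 745 to 918 scaled CPM in KO and 683 to 972 in WT at day 5, and to 205 to 247 in KO and 182 to 203 in WT at day 0, with none at 0. Of these 10 markers, 9 were called higher with obstruction in each genotype, and C1qb rose by 2.54 ± 0.15 in KO and 2.82 ± 0.18 in WT. Of the 6 tested neutrophil markers, 5 were higher in KO and 6 in WT. Among them, Cxcr2, Mmp8 and Retnlg stood at 0.544 scaled CPM or less at day 0. These passed the filter on low values only with their day 5 libraries. The 7 dendritic cell markers summed to 39.8 to 49.5 in KO and 40.1 to 50.8 in WT at day 5, and to 14.1 to 20.3 in KO and 15.6 to 15.8 in WT at day 0, with 6 of 7 higher in each genotype. The 6 T cell markers summed to 11.3 to 22.0 in KO and 12.1 to 27.0 in WT at day 5, and to 6.68 to 8.22 in KO and 6.16 to 6.23 in WT at day 0, with 4 higher in KO and 5 in WT. The 5 B cell markers summed to 4.48 to 4.92 in KO and 3.77 to 6.0 in WT at day 5, and to 2.72 to 3.64 in KO and 1.57 to 3.27 in WT at day 0, and 1 of 4 tested was higher in each genotype. The 6 endothelial markers summed to 258 to 304 in KO and 264 to 302 in WT at day 5, and to 228 to 336 in KO and 247 to 315 in WT at day 0, with 1 higher and 1 lower in each genotype. Tubular markers went down: 5 of 6 proximal tubule markers were lower in KO and 6 in WT, and 4 of 6 markers of other nephron segments were lower in KO and 3 in WT. Both lists also went with the sex-chromosome pattern, with 4 of 6 markers of each called lower in Y-linked libraries (medians -0.71 and -0.75). With the pattern as a covariate, 6 of 6 proximal tubule markers and 5 of 6 of the others were lower with obstruction in each genotype. All 6 T cell markers had negative differences for the pattern (median -0.57), none called, and with it as a covariate 2 of 6 were higher in KO and 5 in WT.

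Among the day 5 libraries, the highest was WT replicate 1 for 4 of the 10 genes, KO replicate 2 for 3, WT replicate 3 for 2 and KO replicate 3 for 1. The ratio of the highest to the lowest of these 6 libraries was 1.28 for Tlr3 and Myd88 and 2.49 for Cd14. At day 0, KO replicate 1 was the highest library for 7 of the 10 genes, and the ratio ran from 1.23 for Myd88 to 3.07 for Tlr8, where it rests on 3 and 9 reads. KO replicate 1 also had the highest macrophage sum at day 0 (247). Leaving it out changed no call of the 10 genes for obstruction or genotype.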

How the data were processed

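RNA from a frozen part of each left kidney was made into PrepX mRNA libraries and sequenced as 50-base reads, per the labels' protocols; strandedness is not given in the sources used here. Per the submitters' processing notes, STAR, SAMtools and HTSeq were used with GRCm38.p6, their versions not given in the sources used here. The authors deposited 1 table of CPM, whose columns have equal sums. Dividing each column by its smallest step gave whole reads (100% of 665652 values within 0.001 of a whole number), that is 16567256 to 19398882 per library.

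CPM were divided by TMM factors, and log2(scaled CPM + 0.5) was modelled in limma 3.58.1 under R 4.3.3, with empirical Bayes variances that follow a mean trend and 1 mean for each of the 4 groups in all 12 libraries, which share 1 estimate of the spread. Fold changes are on that scale and understate those of low genes. Genes were kept by filterByExpr of edgeR (minimum count 10, minimum total 15), which left 18093 genes with 99.9% of reads. Calls were made at an adjusted p under 0.05 (Benjamini-Hochberg, over all of them). A gene low at day 0 can pass the filter through its day 5 libraries alone, and its call for obstruction is then not independent of the filter. The procedure was tested on simulated data with 1 spread for all genes. Of 2-fold changes it recovered 53% for obstruction in KO, 30% for obstruction in WT, 47% for genotype at day 5 and 39% at day 0. Of 4-fold changes it recovered 90% to 94%, and 4% to 7.84% of its calls were false. Smaller differences could thus often be missed. The pattern of a library was called Y-linked where Ddx3y, Uty, Kdm5d and Eif2s3y summed to at least 10 CPM. These sums were 112 to 170 CPM in such libraries and 0.281 to 0.979 CPM in the others. The pattern was compared as 1 term beside the group means.

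The 10 genes and the lists were chosen with earlier results of these data known. All 10 are named. From each other list up to 4 tested genes with the smallest adjusted p for obstruction in wild type are eligible to be named. Genes outside this rule were named after their values were seen (among them Ly96, Cd36, Ticam1, Irf3, Irf5, Hmgb1, Il1b, Il6, Il12b, Ccl3, Ccl4, Vcan). Exons and 50-base sequences are those of GENCODE M21 (55230 of 55471 identifiers matched), and promoters are RefSeq's. Levels per kb were divided by the total length of exons. Alternatives were edgeR 4.0.16 and DESeq2 1.42.0 on the recovered reads (edgeR called 5350 genes higher and 4482 lower with obstruction in KO, and 4330 and 4130 in WT), RLE, upper-quartile or no factors, 0.1 or 1 CPM added, no filter or CPM of 1 in 2 libraries, the compared groups alone, the Y-linked pattern as a covariate, and each library left out.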

Additional observations from a re-analysis of the deposited data

Results flagged for a closer look

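Tlr3 in knockout kidneys at day 0 had 1 library far from the others. KO replicate 1 stood at 14.4 scaled CPM, against 10.9, 10.9 and 11.1 in the other 3 libraries, and the gap to the nearest took 0.923 of the range of the group. The same library was highest at day 0 for 7 of the 10 genes and for the summed macrophage markers (247 scaled CPM). Of the groups looked at in this way there were 10, one per gene, and chance sets a library apart in about 1 of 20.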

How the results depend on the processing

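In each genotype 229 of 230 obstruction results of the 10 genes kept their direction and their side of the threshold under 23 alternatives. The exception in each was Tlr3 with library size alone. No alternative called any of the 10 between genotypes or for the interaction. The count called for the sex-chromosome pattern was 1 (Tlr13) with edgeR and 1 with DESeq2, and 0 to 1 when libraries were left out, WT day 5 replicate 1 and KO day 0 replicate 1 giving 1. For Tlr8 at day 0 the fit of the compared groups alone gave no value, since the gene did not pass the filter. Of 1472 list counts, 1389 stayed within 1.5 times and 83 moved, most often that of endogenous ligands called lower in KO.

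Counts over all genes moved more. Between genotypes at day 0, 0 higher and 3 lower became 225 and 145 with DESeq2, 2 and 13 with library size alone, 4 and 15 with the pattern as covariate, 13 and 22 without KO day 5 replicate 2, 4 and 16 without KO day 5 replicate 3, and 421 and 217 without WT day 0 replicate 1, with 0 to 8 in either direction under the others. At day 5, 0 and 0 became 49 and 2 with DESeq2 and 15 and 8 without KO day 5 replicate 2, with 0 to 2 under the others. The interaction, 1 higher and 0 lower, became 35 and 12 with DESeq2, 12 and 3 without KO day 5 replicate 2, and 43 and 64 without WT day 0 replicate 1, with 0 to 3 under the others. The pattern, 639 higher and 797 lower, became 211 and 245 without KO day 5 replicate 2, 358 and 505 without WT day 5 replicate 3, 1039 and 890 with DESeq2, and 458 and 448 with no filter.

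Signs of uncalled log2 differences turned as follows. Between genotypes at day 0, library size alone gave -0.020 for Tlr7 and -0.019 for Myd88, and the pattern as covariate gave 0.079 for Tlr9. The interaction of Tlr9 was 0.010 with 0.1 CPM added, and the pattern difference of Myd88 was -0.019 with library size alone. With libraries left out, day 5 genotype differences ran from -0.032 to 0.36 (Tlr2), -0.36 to 0.034 (Tlr7), -0.43 to 0.10 (Tlr9), -0.39 to 0.064 (Tlr13) and -0.10 to 0.025 (Tlr12). Day 0 differences ran from -0.076 to 0.22 (Tlr1), -0.13 to 0.066 (Tlr3), -0.29 to 0.37 (Tlr7) and -0.032 to 0.15 (Myd88). Interactions ran from -0.14 to 0.25 (Tlr2), -0.18 to 0.015 (Tlr3), -0.52 to 0.14 (Tlr7) and -0.31 to 0.22 (Tlr9). Pattern differences ran from -0.00058 to 0.25 (Tlr1), -0.12 to 0.27 (Tlr2), -0.011 to 0.18 (Tlr3) and -0.040 to 0.14 (Myd88), and the KO obstruction difference of Tlr11 from -0.075 to 0.30. The cause was not tested.

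No paired analysis was possible because the labels and columns carry no replicate numbers shared between groups. With 2 WT libraries at day 0, leaving out 1 leaves a lone library that is assumed to vary like the other groups. Depth limits Tlr8 most, with 3 to 9 reads per library at day 0.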

Other observations

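The genes most like a gene in level were taken among 13026 abundant genes (13027 for Tlr8), by Pearson r of log2 scaled CPM over the 12 libraries, as a description. The 2 days form separate clusters, so these values mostly follow the day. Tlr2 was nearest to Itgb2 (r = 0.993), Fcer1g (0.992) and Aoc1 (0.992), Tlr13 to C1qa (0.992), Cap1 (0.991) and Psme1 (0.991), and Cd14 to Apobr (0.993), Fxyd5 (0.991) and Gsdmd (0.991). Myd88 was nearest to Mex3a (0.993), Osmr (0.989) and Tmem173 (0.989). The nearest to Tlr3 were less near: Rin2 (0.932), Gbp5 (0.913) and Top3a (0.905).

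With the group means taken out, Tlr1 was nearest to Aar2 (0.965), Cd180 (0.955) and Lrrc32 (0.927), Tlr2 to Hcn3 (0.973), Dok3 (0.972) and Nphp4 (0.941), and Tlr9 to Axl (0.947), Tspan9 (0.945) and Sh3pxd2a (0.936). Tlr4 was nearest to Orc6 (0.955) and the matrix genes Col3a1 (0.935) and Lama4 (0.927). Tlr13 was nearest to Ift46 (0.972), Psme1 (0.972) and Nelfcd (0.948), and Psme1 was thus near it by both measures. Each of these is among the 3 highest of 13026 or 13027 values over the same 12 libraries.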
